A study of Mus musculus with 9 samples.

Results

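The miR-34 family was followed in cultured mouse hippocampal neurons after NMDA or bicuculline treatment. Its members were set by name alone: the 5 probe sets named mmu-miR-34a, mmu-miR-34b-3p, mmu-miR-34b-5p, mmu-miR-34c and mmu-miR-34c* on the array, of 650 miRNAs in all. The neurons came from C57BL/6 mice at postnatal day 1 and had spent 10 days in vitro. There were 3 untreated control cultures, 3 cultures given 20 µM NMDA and 3 given 50 µM bicuculline, and the labels state 4 h for both drugs. The study's methods describe a short exposure to NMDA followed by washing, so the length of contact with the drug on these arrays is not settled. NMDA opens a class of glutamate receptors and, added to the bath, reaches receptors outside synapses, whereas bicuculline blocks inhibitory GABA-A receptors and drives bursts of synaptic activity. The study asked which miRNAs answer toxic NMDA receptor signaling and not synaptic activity. The methods give independent cell preparations for the 3 replicates of a condition, and each culture was measured on 1 Agilent array with 1 colour.

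p53 is a transcription factor that cells stabilise under DNA damage and other stress, and it has been tied to the death of overstimulated neurons. The miR-34 genes are among its best known direct targets. The mature miRNAs, loaded into Argonaute, pair through their seed with mRNAs of cell-cycle and survival genes such as Bcl2, Cdk6 and Sirt1 and lower their output. miR-34a has a gene of its own, whereas miR-34b and miR-34c are cut from a shared transcript that is best known from multiciliated cells and testis.

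RefSeq mature sequences (GRCm38.p6) were found for 4 of the 5 members, all but mmu-miR-34c. They are shown because the seed, bases 2 to 8 and printed in capitals, decides which mRNAs a miRNA can pair with, and because the 5p and 3p arms carry different seeds. The seed of miR-34a-5p and miR-34b-5p also occurs in miR-449a and miR-449c, which are no members. The array's name mmu-miR-34a stands for the 5p arm and mmu-miR-34c* for the 3p arm.
mmu-miR-34a-5p: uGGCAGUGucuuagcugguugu
mmu-miR-34b-5p: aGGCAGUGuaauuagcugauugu
mmu-miR-449a-5p: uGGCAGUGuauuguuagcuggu
mmu-miR-449c-5p: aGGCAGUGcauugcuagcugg
mmu-miR-34b-3p: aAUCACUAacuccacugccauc
mmu-miR-34c-3p: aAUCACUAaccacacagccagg

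Among the entries of that table the seed GGCAGUG was found in the 4 names shown with it, a count without mmu-miR-34c and mmu-miR-449b, for which no entry was matched. The seed AUCACUA was found in miR-34b-3p and miR-34c-3p, and these 2 arms had the same base at 17 of 22 positions counted from the 5′ end without gaps. In GRCm38.p6 the mature miR-34a-5p lies at chr4:150068473-150068494 on the plus strand. The miR-34b-5p arm lies at chr9:51103610-51103632, miR-34b-3p at chr9:51103574-51103595 and miR-34c-3p at chr9:51103044-51103065, all on the minus strand. These are stretches of the RNA genes Mir34a, Mir34b and Mir34c, and in the RefSeq gene table Mir34c and Mir34b start next to each other on chromosome 9 with 0 other gene starts between them. The array headers name another build, so no coordinate of the array was used.

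Signals are given in percent of the array scale, which is the 75th percentile of the signals of the 265 probes detected on every array. That scale lay between 416 and 645 intensity units. The scanner software marks each spot as well above background or not, and a miRNA was counted as well above background where at least 50% of the spots of its brightest probe were so marked. By that rule 162 to 221 miRNAs of an array passed, 156 passed on all 9, and 0 spots were saturated. The arrays lay on 2 slides, read with different versions of the scanner software. Slide 1 held control 1 and 2, NMDA 1 and 2 and bicuculline 1, and slide 2 held control 3, NMDA 3 and bicuculline 2 and 3. All 6 neuronal marker miRNAs (miR-124, miR-9, miR-128, miR-138, miR-218 and miR-137) passed on all 9 arrays. Of 5 markers of microglia and blood cells, miR-146a passed on 8 arrays and the other 4 (miR-142-3p, miR-142-5p, miR-223 and miR-451) on none. Markers listed for other glia and for vessels were mixed. miR-338-3p, listed for oligodendrocytes, and miR-21, listed for astrocytes, passed on all 9 arrays and miR-126-3p, listed for vessels, on 5. miR-219, miR-143 and miR-145, from the same lists, passed on none. These marks do not settle which other cell types were present, and the part of such cells in the results was not tested.

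Only miR-34a, of the 5 members, was well above background on all 9 arrays. In control neurons its signal was 51.6%, 63.9% and 46.9% of the array scale in replicates 1, 2 and 3. After NMDA it was 67.0%, 65.9% and 44.8%, and after bicuculline 62.3%, 55.1% and 40.2%. Replicate 3 was the lowest of each group and all groups overlapped. The means were 54.2% ± 8.78 (SD, n = 3) in control neurons, 59.2% ± 12.5 with NMDA and 52.5% ± 11.3 with bicuculline, an order in which neighbours were closer together than the SD of either. The cultures may hold several cell types, and fewer cells of a type cannot be told apart from less RNA per cell.

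miR-34a did not pass the test after either treatment. Compared with control neurons the log2 difference with NMDA was 0.12 (SE 0.18, limma adjusted p = 0.991), a 1.08-fold level with a 95% interval from 0.805-fold to 1.46-fold. With bicuculline the log2 difference was -0.06 (SE 0.18, limma adjusted p = 0.999), a 0.962-fold level with an interval from 0.721-fold to 1.28-fold. NMDA set directly against bicuculline gave 0.17 (SE 0.21, limma adjusted p = 0.990), with an interval from 0.795-fold to 1.60-fold. All 3 intervals lie between 0.721-fold and 1.60-fold.

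**Figure D1:**
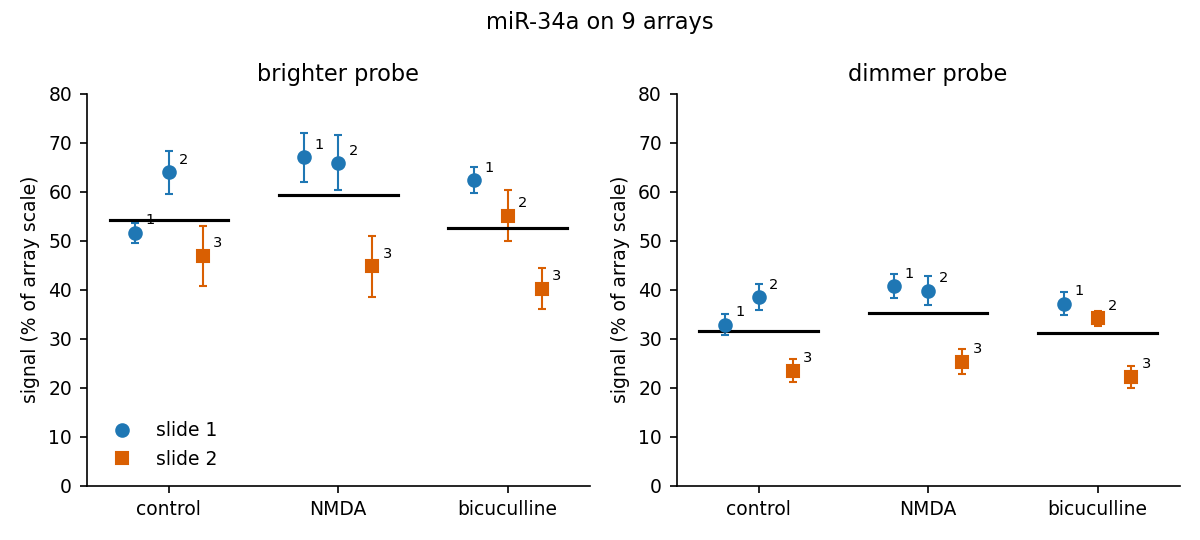
Signal of the 2 probes of miR-34a on each array (y axis, percent of the array scale) by group (x axis). Points are arrays with their replicate number and the SD over spots, colour and shape give the slide, and the black line is the group mean; replicate 3 lies lowest in all groups on both probes.

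Both probes of miR-34a gave this picture. The brighter one, on which the tests rest, varied by 3.98% to 13.9% (CV) between the 7 to 10 spots of an array. The dimmer one was also well above background on all 9 arrays, with means of 31.6% ± 7.57 (SD, n = 3) in control neurons, 35.2% ± 8.64 with NMDA and 31.2% ± 7.90 with bicuculline. Its log2 differences against control neurons were 0.15 with NMDA and -0.02 with bicuculline. Replicate 3 was the lowest array of each group on this probe too.

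miR-34a ran lower on slide 2 than on slide 1. On the 5 arrays of slide 1 its signal ran from 51.6% to 67.0% with a median of 63.9%, and on the 4 arrays of slide 2 from 40.2% to 55.1% with a median of 45.9%. With the group in the model, miR-34a was 0.747-fold on slide 2 (log2 difference -0.42, SE 0.11, limma adjusted p = 0.0362), and 3 of the 181 miRNAs tested had a lower value. By that test 22.7% of all miRNAs tested differed between the slides, and 9.39% were lower on slide 2. The test was added after the data were seen. Its adjusted p passed 0.05 without control 1 or bicuculline 2 but rose to between 0.0593 and 0.220 without each of the other 7 arrays, and it was 0.0757 with quantile normalization, 0.0512 with the mean of all probes and 0.0609 with normexp. Slide 2 holds all arrays of replicate 3, so slide and cell preparation cannot be told apart, and bicuculline 2, its only other array, lay within the range of slide 1 at 55.1%.

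Within slides the treatment differences of miR-34a were small, and only those with NMDA changed direction between the slides. On slide 1 NMDA 1 and 2 were 1.16-fold the level of control 1 and 2, and on slide 2 NMDA 3 was 0.954-fold the level of control 3. Bicuculline gave 1.08-fold on slide 1 and 1.00-fold on slide 2. With the slide as a block the log2 differences were 0.12 with NMDA (limma adjusted p = 0.812) and 0.06 with bicuculline (limma adjusted p = 0.997), so the direction for bicuculline turned. Blocked by replicate number, NMDA against control neurons gave 0.12 (SE 0.10, 95% log2 interval from -0.17 to 0.40, limma adjusted p = 0.627). NMDA was higher than bicuculline at the same replicate number in 3 of 3 pairs, and with the replicate number as a block that log2 difference was 0.17 with an unadjusted limma p of 0.0380 and an adjusted p of 0.181. Bicuculline 2 and NMDA 2 of that set were on different slides, and with the slide as a block the difference was 0.01 (limma adjusted p = 0.999).

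The other 5p arms lay at the edge of detection. miR-34c, the 5p arm of its hairpin, measured 7.59%, 9.23% and 6.75% of the array scale in control neurons, 9.08%, 8.90% and 5.63% with NMDA, and 7.28%, 8.15% and 3.95% with bicuculline. The detection rule was met on 5 of 9 arrays, which were control 3, NMDA 1, 2 and 3 and bicuculline 2. That is 1 control array, 3 NMDA arrays and 1 bicuculline array, but the signals did not follow this count: control 2 had the highest signal of all 9 and was not well above background. The group means were 7.85% ± 1.26 (SD, n = 3), 7.87% ± 1.94 and 6.46% ± 2.22, and the groups overlapped.

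miR-34b-5p, cut from the transcript it shares with miR-34c, measured 6.89%, 7.64% and 5.44% in control neurons. With NMDA it measured 8.19%, 8.17% and 4.52%, and with bicuculline 7.16%, 6.33% and 3.10%. The detection rule was met on 3 of 9 arrays, 1 in each group (control 3, NMDA 2 and bicuculline 2). The means of 6.66% ± 1.12 (SD, n = 3), 6.96% ± 2.12 and 5.53% ± 2.15 differed by less than the spread between arrays. As for miR-34a, the lowest array of each group was replicate 3. The dimmer probe of miR-34b-5p was well above background on 0 of 9 arrays, with a median of 2.66%.

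**Figure D2:**
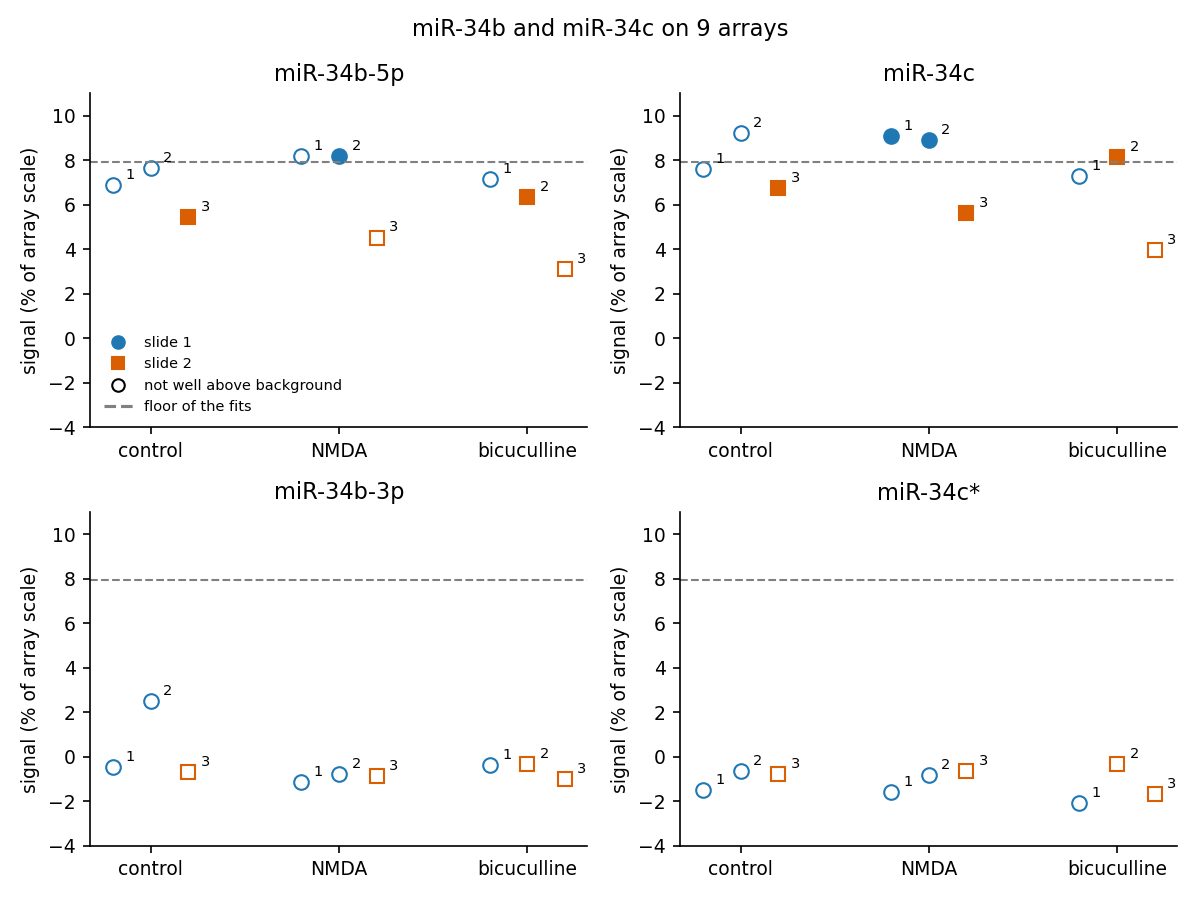
Signal of miR-34b-5p, miR-34c, miR-34b-3p and miR-34c* on each array (y axis, percent of the array scale) by group (x axis); filled points were well above background, colour and shape give the slide, numbers are replicates and the dashed line is the floor of 7.94% used in the fits. The 5p arms lie around the floor and the 3p arms around 0.

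The marks that decide detection moved with the slide. On slide 1 the dimmest probe well above background had a signal between 43.1 and 51.4 intensity units, and on slide 2 between 23.8 and 34.9. On control 3 (slide 2) miR-34c had a signal of 33.5 and 10 of 10 spots were marked, whereas on control 2 (slide 1) its signal was 58.8 and 3 of 9 were marked. NMDA 1 was at the limit for miR-34c with 5 of 10 spots, as was control 3 for miR-34b-5p. The part of the slide and of the software version in these counts was not tested.

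**Figure D3:**
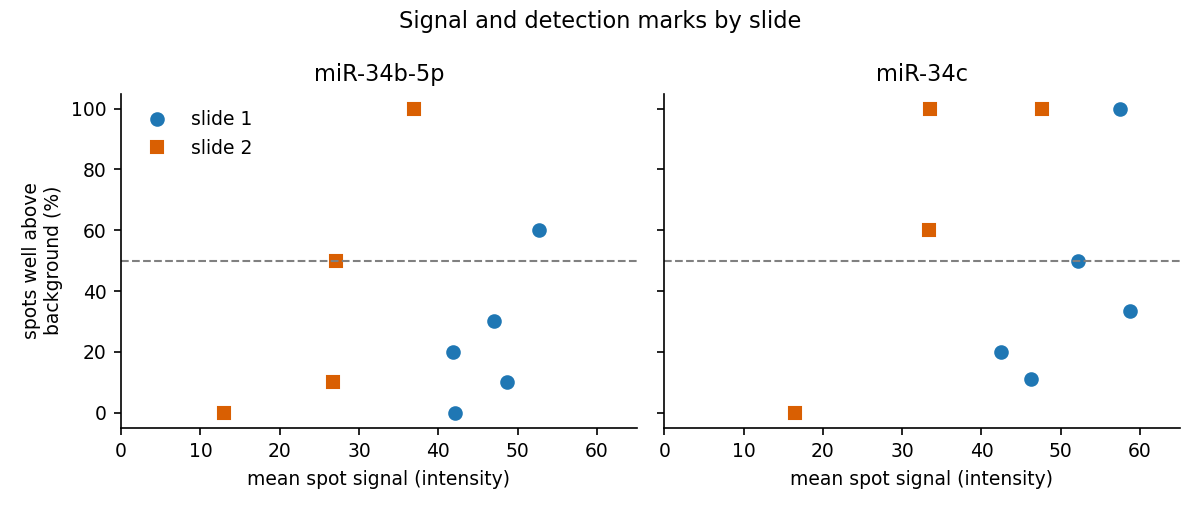
Share of spots marked well above background (y axis, percent) against the mean spot signal (x axis, intensity units) for miR-34b-5p and miR-34c, 1 point per array, colour and shape by slide, dashed line at the 50% needed. On slide 2 signals of 33.3 to 37.0 had at least 6 of 10 spots marked, and on slide 1 signals of 41.8 to 48.7 had at most 3 of 10.

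A detection flag that the software sets for each miRNA gave other counts. It was set for miR-34a on 9 of 9 arrays and for miR-34b-5p and miR-34c on 8 of 9 each. Bicuculline 3 was the array without it for both, and there they had their lowest signals, 3.10% and 3.95%. miR-34b-3p and miR-34c* were flagged on 0 of 9. The number of arrays on which miR-34b-5p and miR-34c counted as detected therefore rested on the rule, while for the other 3 members both rules gave the same number.

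miR-34c entered the fits with NMDA only through the NMDA arrays, and 2 of 3 control signals, 1 of 3 NMDA signals and 2 of 3 bicuculline signals lay under the floor of 7.94% and were set to it. The log2 differences of 0.05 from control neurons (SE 0.10, limma adjusted p = 0.991) and 0.11 from bicuculline (SE 0.08, limma adjusted p = 0.990) are therefore largely set by the floor and bound no change. miR-34b-5p did not pass the filter on dim miRNAs and was not fitted.

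The 3p arms with the AUCACUA seed gave no signal above background. miR-34b-3p ran from -1.16% to 2.50% of the array scale and miR-34c* from -2.10% to -0.343%, with 0 of 9 arrays well above background for each. The negative values are signals that fell under the background the software subtracts. No fold was taken from them.

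In single-value tests on the unfloored signals, 15 exact permutation tests (two-sided) covered 5 members and 3 comparisons, and p ran from 0.1 to 1, with the smallest Benjamini-Hochberg adjusted p at 0.9. With 3 arrays against 3 the smallest p possible is 0.1. The value at that limit was miR-34b-3p, whose 3 NMDA signals (-1.16%, -0.772% and -0.874%) lay under the control signals (-0.465%, 2.50% and -0.694%), all of them not well above background.

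**Figure D4:**
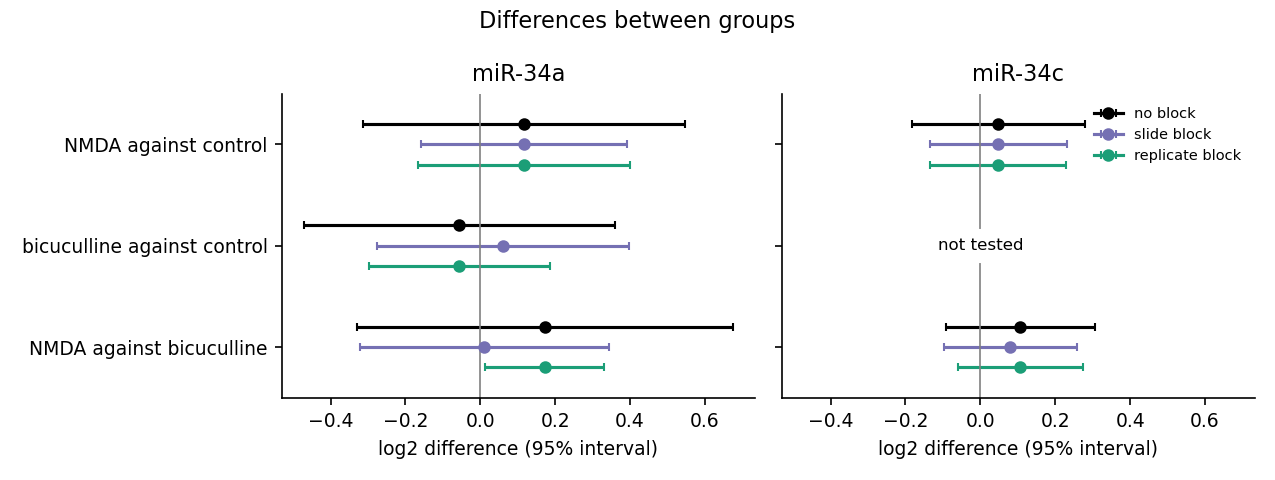
log2 differences of miR-34a and miR-34c (x axis, with 95% intervals from limma) for the 3 comparisons (y axis), without a block and with the slide or the replicate number as a block; those of miR-34c are largely set by the floor. The intervals hold 0 except for miR-34a between NMDA and bicuculline under the replicate block, where the adjusted p was 0.181.

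miR-34a, the member tested in all 3 comparisons, passed an adjusted p of 0.05 in none, and neither did miR-34c in the 2 it entered. Of all miRNAs tested, 8.29% passed for NMDA against control neurons, 0.621% for bicuculline against control neurons and 8.84% for NMDA against bicuculline. At an unadjusted limma p under 0.05 the count of members was 0 in each comparison, and by the methods' t-test it was 0 before and after adjustment. These counts cover only the 2, 1 and 2 members tested. The share of all miRNAs at an unadjusted p was not taken, so they are a description only. The groups of a member tested overlapped in every comparison, and over all miRNAs tested 14.9%, 3.11% and 13.3% did not overlap. As references, miR-689 was 9.54-fold higher with NMDA (limma adjusted p = 0.00031), a call lost without the filter (limma adjusted p = 0.0811). miR-212 was 3.96-fold higher with bicuculline (limma adjusted p = 0.0228), a call lost in 9 of 21 alternatives. Both were chosen because they responded on these same arrays. They therefore cannot show whether a change of miR-34 would be registered.

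Across the 9 arrays the 5p arms went up and down together. Pearson's r of the signals was 0.95 between miR-34a and miR-34b-5p, 0.90 between miR-34a and miR-34c, and 0.96 between miR-34b-5p and miR-34c, as a description over arrays that share slide and scale. With the same-seed miR-449a, r was 0.60 for miR-34a. Of the 155 other miRNAs well above background on all arrays, miR-29c was the most like miR-34a in log2 level (r = 0.98), followed by miR-345-5p (0.95) and miR-337-3p (0.95). After the group means were taken out, these were again the 3 closest, at 0.99, 0.96 and 0.97. All 3 also had lower medians on slide 2 than on slide 1: miR-29c measured 73.0% on slide 1 and 58.8% on slide 2, miR-345-5p 46.4% and 39.3%, and miR-337-3p 25.8% and 19.7%. The slide difference passed the limma test for miR-29c (adjusted p = 0.0333) and not for miR-345-5p (adjusted p = 0.0670) or miR-337-3p (adjusted p = 0.0689). These 3 were picked for their likeness to miR-34a on the same arrays, and miR-34a itself ran lower on slide 2. Their lower medians were favoured by that choice, so the slide values are a description and no separate support.

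The other miRNAs with the miR-34 seed are cut from the miR-449 cluster, which is known from multiciliated cells. miR-449a measured 6.98%, 14.9% and 8.12% of the array scale in control neurons, 9.09%, 13.2% and 7.68% with NMDA, and 7.86%, 12.5% and 7.22% with bicuculline. Replicate 2 was the highest of each group. The detection rule was met on 6 of 9 arrays for miR-449a and on 0 for miR-449b and miR-449c. miR-449a entered the fit with NMDA only through the NMDA arrays, as 2 of 3 control arrays met the rule. Control 1 and NMDA 3 lay under the floor of 7.94% and were set to it. NMDA against control neurons gave a log2 difference of -0.0059 (SE 0.28, limma adjusted p = 0.993). That value is partly set by the floor and bounds no change.

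Of 10 further miRNAs known to be raised by p53, through transcription, a host gene or processing, 4 were well above background on all arrays and could be tested: miR-107, miR-15a, miR-16 and miR-22. miR-192 passed on 3 of 9 arrays, and miR-194, miR-215, miR-143, miR-145 and miR-200c on none. In control neurons the levels were 387% ± 16.6 (SD, n = 3) of the array scale for miR-107, 51.2% ± 2.53 for miR-15a, 106% ± 8.58 for miR-16 and 397% ± 39.5 for miR-22. None passed the test in a comparison. With NMDA their log2 differences ran from -0.13 to 0.02 with a median of -0.02, beside -0.01 over all 181 miRNAs tested. With bicuculline they ran from -0.04 to 0.17 with a median of -0.0021, beside -0.02 over all 161.

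Of 7 miRNAs listed as acting on p53 mRNA or on p53 activity, 6 could be tested. They were miR-125b-5p, miR-25 and miR-30d, listed for p53 mRNA, and miR-29a, miR-29b and miR-29c, listed for inhibitors of p53. Whether these links hold in mouse neurons was not tested. miR-504 was well above background on no array. None passed the test, with log2 differences from -0.17 to 0.06 (median 0.01) with NMDA and from -0.09 to 0.11 (median -0.0047) with bicuculline. miR-30d, at -0.17 with NMDA (SE 0.08, limma adjusted p = 0.615), was the only one of the p53-linked miRNAs whose groups did not overlap in a comparison. That is 1 of 10 tested, beside 14.9% of all miRNAs tested for NMDA against control neurons, so it does not stand out. It measured 54.5%, 53.9% and 48.7% in control neurons and 45.8%, 48.4% and 45.8% with NMDA. Under quantile normalization and normexp it passed, at -0.28 (limma adjusted p = 0.0323) and -0.21 (limma adjusted p = 0.0227), where 14.4% and 14.9% of all miRNAs tested passed. Between NMDA and bicuculline these settings called miR-30d and miR-22, beside 16.6% and 14.4% of all. The scale over all probes called 9 of the 10 tested, but also 79.0% of all 181 miRNAs, whose median was then -0.47. Over all 17 p53-linked miRNAs, 10 could be tested, and 0 passed an unadjusted limma p of 0.05 in any of the 3 comparisons, while the methods' t-test had 1 for NMDA before adjustment and 0 after. The shares of all miRNAs at an unadjusted p were not taken, so these counts are given as a description only.

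**Figure D5:**
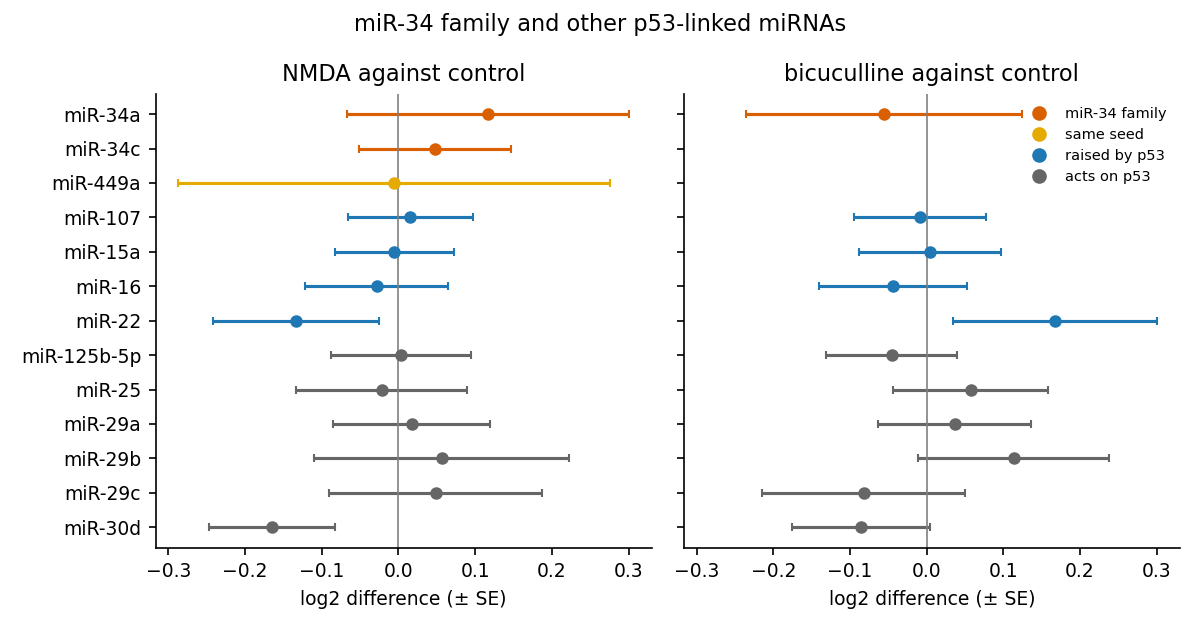
log2 differences (x axis, with SE) of the miR-34 family, miR-449a and the p53-linked miRNAs that could be tested (y axis) for NMDA and bicuculline against control neurons, coloured by list. None passed an adjusted p of 0.05, and the values run from -0.17 to 0.17. miR-34c and miR-449a entered only through the NMDA arrays and have signals set to the floor.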

How the data were processed

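The authors deposited the scanner output of 9 Agilent arrays (1 colour, Cy3), made with Feature Extraction 10.7.1.1 on slide 1 and 10.7.3.1 on slide 2. Its intensity values are background-subtracted within an array by that software and not normalized between arrays. They also deposited their own log2 table, with column medians of 7.06 to 7.08 and r of 0.966 to 0.969 with the scanner levels over 156 miRNAs; its normalization and centring are not given in the sources used here.

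Over the 9 arrays, 3278 spots with outlier flags were left out and the spots of a probe averaged. Signals were divided by the array scale, floored at 7.94% of it and put on the log2 scale, with the brightest probe standing for a miRNA. Each comparison was fitted with limma 3.58.1 in R 4.3.3 on its own arrays alone, over miRNAs that were well above background throughout at least 1 of its groups (3 of 3 arrays), with Benjamini-Hochberg adjustment over all of them and a threshold of 0.05. Simulated data with known changes were used to check that fit. They had normal errors with a common SD, no slide difference and changes of 1 on the log2 scale. The check therefore does not cover slide differences, floored signals or smaller changes. Exact permutation tests used scipy 1.17.1. The number of arrays limits the precision.

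Members and lists were chosen with earlier results of these data known. The text names the members, the miR-449 miRNAs, the p53-linked lists, the reference miRNAs miR-689 and miR-212, and the 3 miRNAs most like miR-34a. Deviations from group means of arrays with the same replicate number correlated at 0.36, 0.76 and 0.63 for NMDA and control, at 0.59, 0.085 and 0.72 for bicuculline and control, and at 0.62, -0.026 and 0.72 for NMDA and bicuculline. By these values the numbers pair NMDA with control; all those 3 pairs share a slide. Alternatives were other scalings, summaries, filters, tests and blocks, the authors' table, and leaving out each array.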

Additional observations from a re-analysis of the deposited data

How the results depend on the processing

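No member was called in any of the 66 alternatives, 22 per comparison, and leaving out each array gave 0 members called throughout. The smallest limma adjusted p of a member was 0.181 (miR-34a, NMDA against bicuculline, replicate block). Most settings tested only 1 or 2 members, and calls over all miRNAs varied. Without the filter 5 of 650 miRNAs were called for NMDA against control, and 27 of 181 with normexp. For bicuculline against control, 0 of 161 were called with normexp and 2 of 161 with the replicate block. NMDA against bicuculline had 8 of 650 without the filter and 143 of 181 with the scale over all probes. With the replicate block the log2 differences of miR-34a stayed at 0.12, -0.06 and 0.17, and calls over all miRNAs moved from 15 to 17, 1 to 2 and 16 to 17; 4 of 6 arrays were closest to their own number in the comparisons with bicuculline. The sign of the uncalled differences turned in several. For miR-34a with NMDA against control it was -0.31 with the scale over all probes, -0.024 with quantile normalization, -0.013 with normexp and -0.068 within slide 2; leaving out 1 array gave 0.016 (without NMDA 1) to 0.31 (without NMDA 3). For miR-34a with bicuculline it was 0.087 with total gene signal, 0.0033 with the authors' table, 0.060 with the slide block, 0.12 within slide 1 and 0.0037 within slide 2; leaving out 1 array gave -0.19 to 0.13, above 0 without control 2 (0.07) and without bicuculline 3 (0.13). For miR-34a with NMDA against bicuculline it was -0.31 (all probes), -0.031 (total gene signal) and -0.072 (within slide 2); leaving out 1 array gave -0.0088 (without bicuculline 3) to 0.36 (without NMDA 3). For miR-34c with NMDA against control it was -0.18 (all probes), -0.10 (quantile), -0.86 (total gene signal), -0.037 (authors' table), -0.018 (floor at 0.5 of the main one) and -0.13 (normexp). Against bicuculline miR-34c gave -0.099 (all probes), -0.056 (quantile), -0.013 (authors' table), -0.022 (normexp) and -0.020 (within slide 2). With the scale over all probes the median over every miRNA tested was -0.43 for NMDA against control and -0.47 against bicuculline, so relative to all miRNAs miR-34a was not lower. Quantile normalization put these medians at -0.14 and -0.13.

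In the single-value tests the scale over all probes turned the differences of mean signal (percent of that scale) of miR-34a to -414, 11.4 and -425 for NMDA against control, bicuculline against control and NMDA against bicuculline. It turned miR-34b-5p to -63.2 and -20.4 and miR-34c to -83.0 and -31.1 for NMDA against control and against bicuculline, and miR-34c* to 11.6 for NMDA against control. The software's detection flag gave 8 arrays for miR-34b-5p, against 3, and 8 for miR-34c, against 5. The slide difference of miR-34a kept its sign except with total gene signal (0.13), and its call was lost with quantile normalization, the mean of all probes and normexp. The cause of these changes was not tested. Signals near background limit miR-34b-5p and miR-34c, and 3 arrays a group limit all tests.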

Other observations

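The software's total signal per miRNA, used here only as an alternative, did not always equal the sum of a miRNA's own probes. On control 1 the total was 327 intensity units for miR-34a, 354 for miR-34b-5p and 383 for miR-34c, while the own probes of miR-34b-5p and miR-34c summed to 36.9 and 42.5. Each total exceeded the one before it by the signal of its brighter probe alone, 26.7 for miR-34b-5p and 29.4 for miR-34c. The same run was seen on control 2 (432, 464 and 503), NMDA 1 (389, 419 and 452) and bicuculline 1 (363, 390 and 416). On NMDA 2 miR-34b-5p stood at 53.5, the sum of its own probes, and miR-34c at 90.3, against 54.9 for its own. On the 4 arrays of slide 2 the totals of miR-34b-5p ran from 0.1 to 25.3 and those of miR-34c from 0.1 to 45.1. Some of these lay under the sum of the own probes. For miR-34b-5p the total was 18.4 against 25.7 on control 3 and 0.1 against 12.8 on bicuculline 3. For miR-34c on bicuculline 2 both were 45.1. Over all miRNAs, 51 to 59 totals on each slide 1 array exceeded the sum of the miRNA's own probes by more than 10% and 1 unit, and 0 did on each slide 2 array. The authors' table did not show these steps: it gave miR-34b-5p 7.24 to 7.40 and miR-34c 7.30 to 7.46 over the 9 arrays, beside 8.29 to 8.63 for miR-34a, on its log2 scale.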
